A study of Mus musculus with 7 samples.

Results

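The p53 family and the DNA damage checkpoint were examined as 10 genes, chosen by symbol: *Trp53*, *Trp63*, *Trp73*, *Mdm2*, *Mdm4*, *Cdkn1a*, *Chek1*, *Chek2*, *Atm* and *Brca1*. All 10 had a row in the table of 22877 rows. RNA was sequenced from oocytes enclosed in secondary follicles of 8-week-old females on a C57BL/6J background. In one genotype floxed *Mfn1*, which encodes a mitofusin of the outer mitochondrial membrane, was deleted by Cre under the *Zp3* promoter (*Mfn1* fl/fl with *Zp3-Cre*, called *Mfn1*-/-), and the other comprised WT littermates. There were 4 WT and 3 *Mfn1*-/- libraries, each made from 5 pooled oocytes. The study's methods give fewer WT libraries than the labels, and the sums in the table match the number in the labels. The *Zp3* promoter is active in growing oocytes, so that resting oocytes and granulosa cells keep the gene. Whether WT littermates carried floxed alleles is not given in the sources used here.

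DNA double-strand breaks activate the kinase ATM, which acts through CHK2, and single-stranded DNA activates ATR, which acts through CHK1. These kinases modify p53, a transcription factor that MDM2 and MDM4 otherwise hold in check, and p53 then switches on arrest and death genes such as *Cdkn1a*. In oocytes arrested in meiotic prophase the p53 relative TAp63 is known as the guardian that removes damaged cells, and BRCA1 serves the repair of breaks by recombination.

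For each gene there was 1 value per genotype, the authors' mean of normalized counts. No spread between replicates, interval or test can be given, a difference below is a description of these 7 libraries, and the depth per library is unknown. The lowest mean in the table was 0.01. Log2 ratios divide the value without *Mfn1* by that of WT after a pseudocount of 0.1 is added to both, which understates the difference of genes with low means, and a gene past 2-fold has a log2 ratio above 1 or below -1. Genes whose mean reached 1, of which there were 6226, had a median log2 ratio of 0.16. Some values are therefore also given after subtracting this shift, among them medians whose sign depends on it. As libraries hold pooled oocytes, less of a transcript per oocyte and fewer oocytes with it cannot be told apart.

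*Mfn1*, the deleted gene, had a mean of 0.0577 in *Mfn1*-/- against 0.616 in WT oocytes, a log2 ratio of -2.18. All 10 oocyte markers were present, with means summing to 1972 in *Mfn1*-/- against 1735 in WT oocytes. The 10 of 11 granulosa cell markers with a row summed to 3.19 and 3.36, and 0 of them lay at the lowest mean. Their most abundant members differed in direction, with *Inha* at 1.87 and 0.954 and *Esr2* at 0.929 and 1.86 in *Mfn1*-/- and WT oocytes. Without *Inha* the granulosa markers summed to 1.32 and 2.41, of which *Esr2* alone gave 0.929 and 1.86. Leaving out *Inha* or *Esr2* thus shifts the sum toward the direction of the other. The part of granulosa RNA in the values below was not tested.

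*Mdm4* was the 1 gene of the 10 past 2-fold, and it was lower in *Mfn1*-/- oocytes. Over all 22877 rows, 7.61% lay past 2-fold in either direction. Of 13830 genes whose mean reached 0.1, 4.24% were past 2-fold lower and 7.25% past 2-fold higher. The 1 of 10 is thus near the background. Of the 10 genes, 5 were higher without *Mfn1* and 5 were lower, with a median log2 ratio of 0.10 beside 0.037 over all 22877 rows. The 9 genes whose mean reached 0.1 had a median of 0.22 beside 0.12 over the 13830 genes. After the shift of expressed genes was subtracted, the median of the 10 turned to -0.056, though only 4 of them reached the mean of 1 that defines those genes. All but *Atm* had a mean of at least 0.1 over the 7 libraries.

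**Figure D1:**
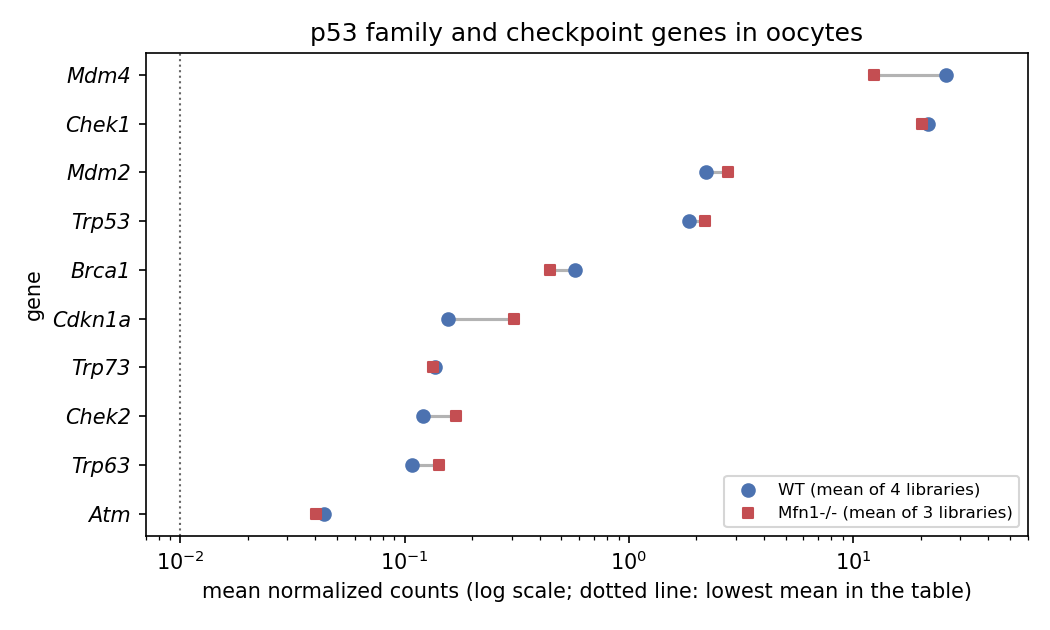
The authors' mean of normalized counts of each of the 10 genes (horizontal axis, log scale) in WT (circles, mean of 4 libraries) and *Mfn1*-/- oocytes (squares, mean of 3 libraries), ordered by the WT mean, with the lowest mean of the table as a dotted line and no error bars, since the table holds no spread. *Mdm4* is 12.4 in *Mfn1*-/- against 25.9 in WT oocytes, while *Chek1*, at a similar level, is 20.4 against 21.5.

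The scale of the normalized counts is not given in the sources used here, but it behaved as a value per length. Among genes at the lowest mean in *Mfn1*-/- oocytes and above it in WT oocytes, the WT mean exceeded it by a median of 0.107 for the 119 genes with transcripts under 600 bases and 0.0026 for the 121 genes with transcripts over 4000 bases. On this scale *Mdm4* (25.9) and *Chek1* (21.5) had the highest WT means of the 10 genes. *Mdm2* (2.22) and *Trp53* (1.85) came next, then *Brca1* (0.573). *Cdkn1a* (0.156), *Trp73* (0.137), *Chek2* (0.121) and *Trp63* (0.108) were close together, and *Atm* (0.0439), whose longest transcript has 9819 bases, was the lowest. In *Mfn1*-/- oocytes *Chek1* (20.4) stood above *Mdm4* (12.4), and *Cdkn1a* (0.307) remained next after *Brca1* (0.446). Whether neighbours in this order differ beyond their spread cannot be given.

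The transcription factors themselves differed little. *Trp53* (chromosome 11, 69580359 to 69591873, GRCm38) had a mean of 2.19 in *Mfn1*-/- against 1.85 in WT oocytes, a ratio of 1.18 and a log2 ratio of 0.23. *Trp63* (chromosome 16, 25683763 to 25892102), the source of TAp63, had means of 0.143 and 0.108 and a log2 ratio of 0.22. The ratio of *Trp53* came close to that of expressed genes in general, at 0.073 once the shift was subtracted. *Trp63* lay below the level of the genes that gave this shift, and its ratio depended on the pseudocount. Its log2 ratio was 0.405 with none and 0.045 with a pseudocount of 1. Among 4976 genes of similar level, whose median was 0.039, 34.3% had a higher log2 ratio than *Trp63* at a pseudocount of 0.1. *Trp73* (chromosome 4, 154056253 to 154140208), whose protein acts in the spindle checkpoint of oocytes, had 0.134 and 0.137 and a log2 ratio of -0.018. It shares exon sequence with the antisense gene *Trp73os*, which had means of 0.0382 and 0.0475. Smart-Seq2 libraries do not mark the strand, so reads in the shared sequence cannot be assigned by strand. The table gives 1 value per gene, so that TA and truncated forms of *Trp63* and *Trp73* are not separated. The processed pseudogene *Trp53-ps* shares up to 353 bases with *Trp53* at 97.7% identity, so reads there could have been divided.

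The paired inhibitors of p53 differed in the direction of their ratios. *Mdm4* (chromosome 1, 132959484 to 133030561, minus strand) encodes the partner of MDM2 that masks the activation domain of p53. Its mean was 12.4 in *Mfn1*-/- against 25.9 in WT oocytes, a ratio of 0.479 and a log2 ratio of -1.06, or -1.22 after subtracting the shift. Among 1198 other genes whose mean lay within 2-fold of that of *Mdm4*, 1.59% had a lower log2 ratio, which is given as a rank with no test. *Mdm2* (chromosome 10, 117688875 to 117710758, minus strand), the ubiquitin ligase that marks p53 for degradation and is itself a p53 target, had means of 2.76 and 2.22. Its log2 ratio was 0.30, and 35.2% of 2885 genes of similar level were higher. The log2 ratios of *Mdm2* and *Mdm4* differed by 1.36, and the mean of *Mdm2* as a share of that of *Mdm4* was 0.223 in *Mfn1*-/- against 0.0857 in WT oocytes.

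With a pseudocount of 1 the log2 ratio of *Mdm4* was -1.005, and rounding of the table to 3 significant digits leaves it anywhere between -1.013 and -0.997, so its place on either side of 2-fold is undecided there. GENCODE M21 gives *Mdm4* 14 transcripts, of which 5 are protein-coding and 2 are marked for nonsense-mediated decay, and the table gives 1 value for the gene. The pseudogene *Mdm4-ps*, which shares a stretch of 140 bases with *Mdm4* at 97.1% identity, had means of 2.08 and 3.24 in *Mfn1*-/- and WT oocytes, also lower without *Mfn1*.

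**Figure D2:**
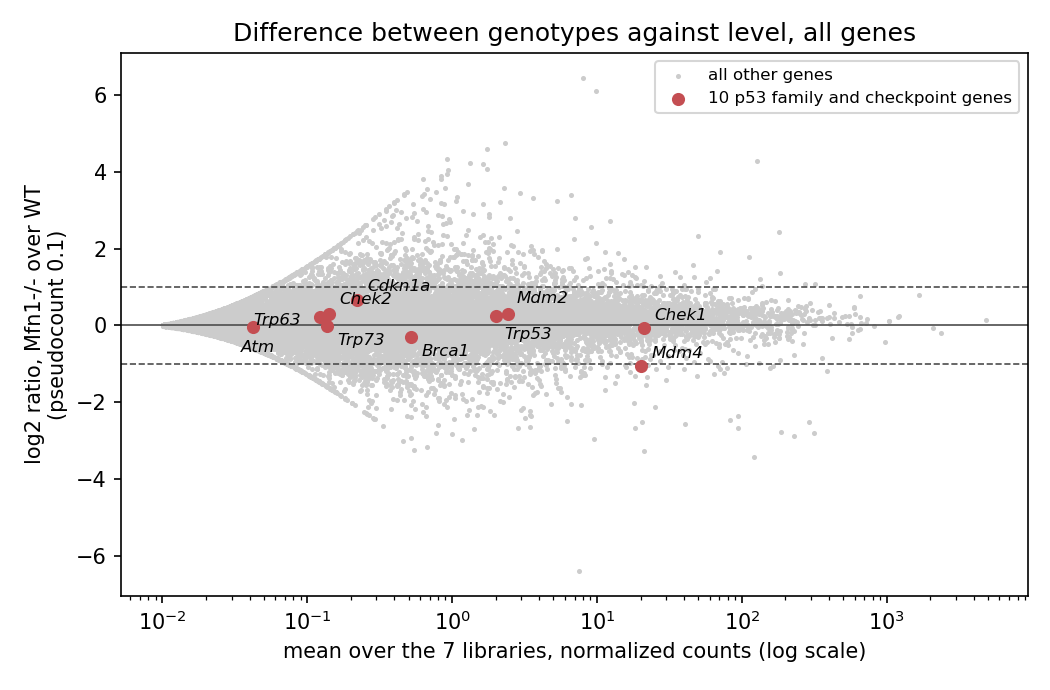
Log2 ratio of *Mfn1*-/- over WT (vertical axis, pseudocount 0.1) against the mean over the 7 libraries (horizontal axis, log scale) for every row of the table (grey) and the 10 genes (red), with dashed lines at 2-fold. *Mdm4* lies at -1.06 below the lower dashed line, and the other 9 genes lie between -0.30 and 0.67, within the grey cloud.

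*Cdkn1a* (chromosome 17, 29090976 to 29100727), which encodes the CDK inhibitor p21 and is the best known p53 target, had the highest log2 ratio of the 10 genes. Its mean was 0.307 in *Mfn1*-/- against 0.156 in WT oocytes, a ratio of 1.97 that fell just short of 2-fold. The log2 ratio was 0.67 with a pseudocount of 0.1 and 0.93 with 0.01, and 0.51 after subtracting the shift. Among 4784 genes of similar level, 15.2% were higher, so a difference of this size was common at this level. An annotated gene on the opposite strand, *AC167363.2*, overlaps its exons, and Smart-Seq2 libraries do not mark the strand.

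The upstream windows of *Cdkn1a*, *Mdm2* and *Mdm4* are shown because these are the p53 target and the pair of p53 inhibitors whose means differed most in direction. RefSeq promoter entries (GRCm38.p6) were found for 9 of the 10 genes, in 12 windows, and the 250 bases before each start site were searched on both strands. The 10-base p53 consensus motif and the 20-base p53 element, a pair of such motifs side by side with up to 1 mismatch, were searched first. Capitals mark the 20-base element in *Cdkn1a* and the 10-base motif in *Mdm2*, and the *Mdm4* window has no capitals because it holds neither. *Mdm4* has a further window (chr1:133030588-133030837), not shown, which also holds neither.
Cdkn1a, chr17:29090729-29090978, plus strand: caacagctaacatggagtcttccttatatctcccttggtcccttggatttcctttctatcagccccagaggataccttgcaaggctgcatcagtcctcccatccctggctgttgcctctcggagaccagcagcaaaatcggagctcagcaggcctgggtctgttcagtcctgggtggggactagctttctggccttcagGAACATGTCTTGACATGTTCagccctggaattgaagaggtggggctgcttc
Mdm2, chr10:117710759-117711008, minus strand: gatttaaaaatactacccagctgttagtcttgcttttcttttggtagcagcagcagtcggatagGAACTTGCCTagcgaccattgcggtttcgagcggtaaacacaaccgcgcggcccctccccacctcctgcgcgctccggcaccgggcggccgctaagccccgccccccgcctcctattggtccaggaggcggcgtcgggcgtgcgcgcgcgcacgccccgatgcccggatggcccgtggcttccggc
Mdm4, chr1:133025417-133025666, minus strand: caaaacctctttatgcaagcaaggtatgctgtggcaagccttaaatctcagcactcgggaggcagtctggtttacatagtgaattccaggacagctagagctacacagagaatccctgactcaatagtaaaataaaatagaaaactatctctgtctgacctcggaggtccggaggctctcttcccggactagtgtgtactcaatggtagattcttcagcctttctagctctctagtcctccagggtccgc

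The *Cdkn1a* window belongs to the more distant of its 2 start sites, at 29090979, and the element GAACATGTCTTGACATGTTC (chr17:29090928-29090947) ends 32 bases before it. Of 32851 promoter windows of the same length, 0.0761% held such an element and 7.13% the 10-base motif, and an element always holds at least 1 full 10-base motif. The same *Cdkn1a* window holds a further 10-base motif, GGACTAGCTT (chr17:29090906-29090915), left in lower case above. The 10-base motif was found in windows of *Cdkn1a*, *Mdm2* and *Trp53*, in the last as GGACTTGCCC (chr11:69580284-69580293). The CCAAT motif was found in 5 of the 9 genes and GGGCGG in 4, counting a match in any of their 12 windows. Of all single windows, 33.8% and 32.7% held them, so counts of genes and shares of windows are not alike. TATAAA was found in 1, beside 12.4%, and TGATGNAA, a core of elements bound by ATF4, in 0, beside 3.45%. A match describes these letters only.

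Among the checkpoint kinases no gene came near 2-fold. *Chek1* (chromosome 9, 36708482 to 36727065), the kinase below ATR, had means of 20.4 in *Mfn1*-/- against 21.5 in WT oocytes, a log2 ratio of -0.075 that was -0.24 after subtracting the shift. *Chek2* (chromosome 5, 110839979 to 110874145), which phosphorylates TAp63 in oocytes after breaks, had 0.169 and 0.121, a ratio of 1.40 and a log2 ratio of 0.28. *Atm* (chromosome 9, 53439149 to 53536740) had 0.0404 and 0.0439 and a log2 ratio of -0.036. The abundant CHK1 kinase gene and the scarce *Atm* thus had nearly equal means in the genotypes.

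*Brca1* (chromosome 11, 101488764 to 101551955) had the second lowest log2 ratio of the 10 genes. Its mean was 0.446 in *Mfn1*-/- against 0.573 in WT oocytes, a ratio of 0.778 and a log2 ratio of -0.30, or -0.46 after subtracting the shift. Of 4236 genes of similar level, 79.0% had a higher log2 ratio.

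Other genes of the pathway were taken from 5 lists. In the list of p53 regulators, 14 of 14 genes had a row, 7 were higher and 7 lower in *Mfn1*-/- oocytes, and *Mdm4* was the 1 past 2-fold. Without *Mdm2* and *Mdm4*, the other 12 had a median log2 ratio of 0.005, or -0.154 after subtracting the shift, and 0 lay past 2-fold. Beside *Mdm4* the highest means were those of the kinase gene *Csnk1e* (8.54 and 6.84, log2 ratio 0.32) and the p53 ligase gene *Rchy1* (7.08 and 8.06, -0.18).

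Damage sensors and kinases had 0 of 19 genes past 2-fold and a median log2 ratio of 0.059, or -0.100 after subtracting the shift. The largest was *H2afx* (chromosome 9, 44334694 to 44336077), which encodes the histone H2AX that is phosphorylated at breaks. Its mean was 169 in *Mfn1*-/- against 87.5 in WT oocytes, a ratio of 1.93 and a log2 ratio of 0.95, just under 2-fold. Of 357 genes of similar level, 2.24% had a higher log2 ratio. The gene *Gm44335* overlaps its exon on the opposite strand. The ubiquitin ligase gene *Rnf8*, which acts after H2AX at breaks, had 14.2 and 13.5 and a log2 ratio of 0.072. With the shift subtracted, 6 of the 19 genes lay above 0 and 13 below.

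BRCA1 complexes and homologous recombination also had 0 of 20 genes past 2-fold. The median log2 ratio of the list was -0.060, the lowest of the 5 lists, with 8 genes higher and 12 lower in *Mfn1*-/- oocytes. After the shift was subtracted, 4 lay above 0 and 16 below. *Babam1*, a subunit of a BRCA1 complex, had a mean of 13.2 without *Mfn1*, 1.32 times that of WT (log2 ratio 0.40), and *Abraxas1*, the scaffold of the same BRCA1 complex, had 4.15 and 4.72 (-0.18).

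Among p53 target genes, 29 of 30 had a row, 20 were higher and 9 lower in *Mfn1*-/- oocytes, and the median log2 ratio was 0.25. Over all 22877 rows 56.7% were higher, as were 59.9% of genes whose mean reached 0.1 and 65.4% of those whose mean reached 1. Only 19 of the 29 targets reached a mean of 0.1, so the first share is over the like set. After the shift was subtracted, 17 of the 29 targets lay above 0 and 12 below. Past 2-fold were 3 genes, and all were higher. All 3 belonged to the 19 targets whose mean reached 0.1. Of all genes with such a mean, 7.25% were past 2-fold higher. With a pseudocount of 0.01 the genes past 2-fold were 5 higher, with *Phlda3* and *Pmaip1* added, and 1 lower, *Pidd1*. *Pmaip1* had means of 0.198 in *Mfn1*-/- against 0.0568 in WT oocytes and a log2 ratio of 0.93 at a pseudocount of 0.1. *Gadd45a* (chromosome 6, 67035096 to 67037457), a growth arrest gene that ATF4 also induces, had means of 2.94 in *Mfn1*-/- against 1.19 in WT oocytes and a log2 ratio of 1.24. *Sfn* (chromosome 4, 133600556 to 133602168), which encodes 14-3-3 sigma, had 11.9 and 5.14 and a log2 ratio of 1.20. *Sesn2* (chromosome 4, 132492032 to 132510501), a sestrin gene that is likewise an ATF4 target, had 0.268 and 0.0813 and a log2 ratio of 1.02. *Sesn2* dropped to 0.86 after subtracting the shift, and *Sfn* alone stayed past 2-fold with a pseudocount of 1. Exons of *Gadd45a* overlap the antisense gene *E230016M11Rik*, and *Sfn* shares 712 bases with *Gm7850* at 97.5% identity.

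The most abundant p53 targets after *Sfn* stayed under 2-fold. *Bax*, the pore-forming death protein gene, had means of 6.04 and 3.31 and a log2 ratio of 0.85, and the bisphosphatase gene *Tigar* had 3.71 and 2.74 and a log2 ratio of 0.42. *Bbc3* and *Phlda3* were listed at the lowest mean in WT oocytes, with 0.028 and 0.0438 in *Mfn1*-/- oocytes, so no fold is given. Of the 21 target genes with promoter entries, 2 held the 20-base p53 element in a window, *Cdkn1a* and *Ccng1*. The element of *Ccng1*, a cyclin gene, reads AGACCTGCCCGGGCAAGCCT (chr11:40755462-40755481, minus strand), and *Ccng1* had means of 1.01 and 0.711 and a log2 ratio of 0.45.

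CDK inhibitors and checkpoint effectors were higher in *Mfn1*-/- oocytes in 11 of 12 genes, with a median log2 ratio of 0.23. Over all 22877 rows 56.7% were higher, as were 59.9% of genes whose mean reached 0.1. After the shift was subtracted, 9 of the 12 genes lay above 0 and 3 below. *Cdkn2b* (chromosome 4, 89306299 to 89311039), the INK4B inhibitor gene, was the 1 of 12 past 2-fold. It had means of 0.352 and 0.124 and a log2 ratio of 1.01 that became 0.85 with the shift subtracted. *Cdkn2b* was among the 11 genes of the list whose mean reached 0.1. The background of genes with such a mean past 2-fold higher was 7.25%. *Cdkn1c*, the p57 gene, had 4.86 and 2.66 (log2 ratio 0.85), *Cdkn2d*, the INK4D gene, 3.74 and 2.08 (0.82), and *Cdc25a*, the CDK phosphatase gene that CHK1 restrains, 1.68 and 1.35 (0.30). *Cdkn1a* is also on this list and on that of p53 targets.

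**Figure D3:**
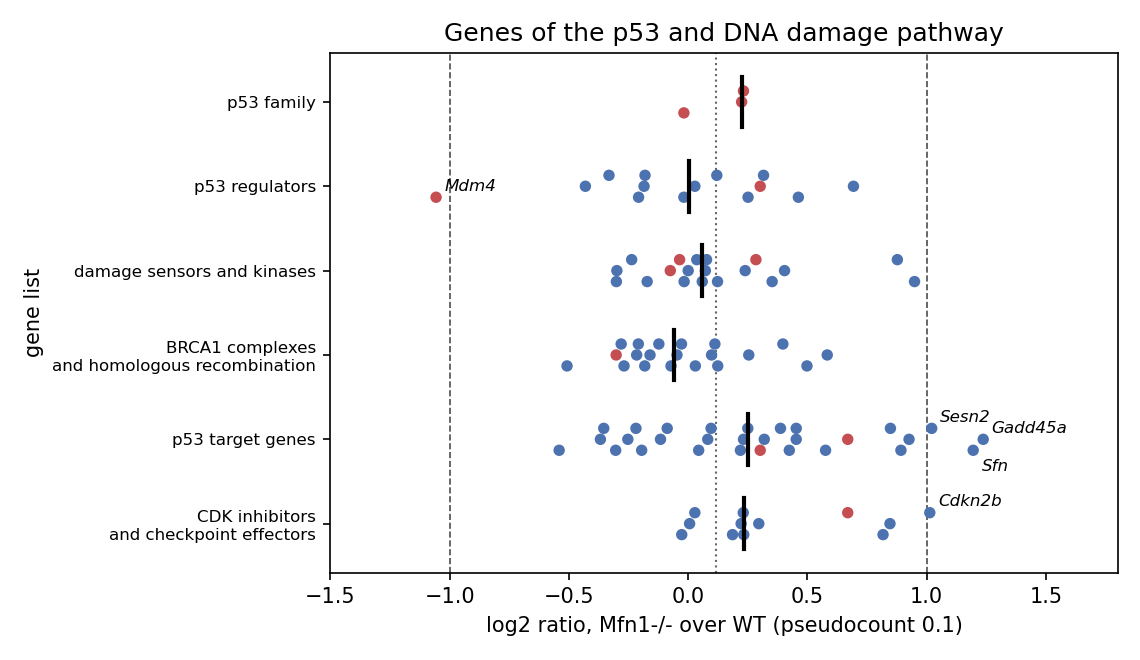
Log2 ratio of *Mfn1*-/- over WT (horizontal axis, pseudocount 0.1) of each gene of 6 lists (vertical axis), with the 10 genes described here in red, other genes in blue, a black bar at the median of each list, dashed lines at 2-fold and a dotted line at 0.12, the median of genes with a mean of at least 0.1. *Mdm4* is the only gene past 2-fold lower, and *Gadd45a*, *Sfn*, *Sesn2* and *Cdkn2b* are past 2-fold higher.

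The dependence of the 10 log2 ratios on the pseudocount was largest for genes with low means. *Chek2* ran from 0.060 with a pseudocount of 1 to 0.48 with none, and *Cdkn1a* from 0.18 to 0.98, while *Mdm4* stayed between -1.06 and -1.005 over the same settings. The 10 genes lie on 8 chromosomes and all are protein-coding.

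**Figure D4:**
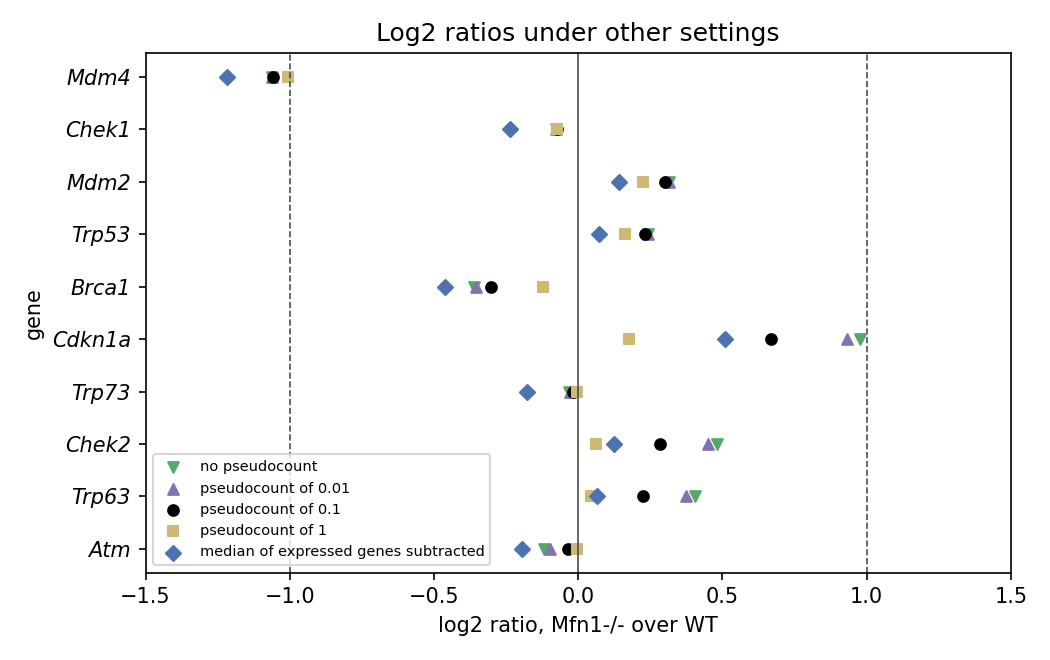
Log2 ratio of *Mfn1*-/- over WT (horizontal axis) of each of the 10 genes (vertical axis, ordered by WT mean) with pseudocounts of 0.1, 0.01, 1 and none, and after subtracting the median of expressed genes at a pseudocount of 0.1, with dashed lines at 2-fold. *Mdm4* lies at the lower line with a pseudocount of 1 and past it in the other settings, and the log2 ratio of *Cdkn1a* spreads from 0.18 to 0.98.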

How the data were processed

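RNA of 5 oocytes per library was amplified with Smart-Seq2, made into Nextera XT libraries and sequenced as 75 bp paired-end reads. The authors removed adapters (Cutadapt) and low-quality reads (FASTX-Toolkit), mapped the rest to GRCm38/mm10 by STAR and derived gene counts. As deposited, the table gives a signal per gene, namely 1 mean of normalized counts for each genotype, and a sum over libraries. The normalization and the annotation version are not given in the sources used here. In 100% of rows that sum matched 3 *Mfn1*-/- and 4 WT libraries to within 1%. A further 4 columns hold the authors' p-value, FDR, ratio and fold change of *Mfn1*-/- against WT, and they were not used. There were 0 unused columns of single samples.

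Samples were grouped by their titles. Log2 ratios were computed with a pseudocount of 0.1 and called at 2-fold, with no test, since the table holds genotype means. Alternatives were pseudocounts of 0.01, 1 and none, minimum means of 0.1 and 1, a 1.5-fold limit and subtraction of the median of expressed genes. The code was tested on simulated data. Genes named are the 10 members, *Mfn1*, and in each list the genes past 2-fold with a mean of at least 0.1 in either genotype and the 3 with the highest mean, of which 1 is not reported here. *Bbc3*, *Phlda3*, *Pmaip1*, *Ccng1*, *Pidd1*, *Fas*, *Zmat3* and genes that overlap or resemble these were named after values were seen. Members and lists were chosen with earlier results of these data known. Positions come from GENCODE M21, whose build matches that of the study, and similar transcripts from blastn 2.17.0 at 95% identity or more. Python 3.11.15, numpy 2.4.6, pandas 2.3.3 and matplotlib 3.10.9 were used.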

Additional observations from a re-analysis of the deposited data

How the results depend on the processing

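The count of the 10 genes past 2-fold was 1, *Mdm4*, with pseudocounts of 0.1, 0.01 and none, with minimum means of 0.1 and 1 and after subtraction of the median of expressed genes, and 2 at a limit of 1.5-fold, where *Cdkn1a* joined it. With a pseudocount of 1 the value of *Mdm4* as printed in the table gives 1, but rounding of the table leaves 0 or 1. The median log2 ratio of the 10 genes was 0.103 and turned to -0.056 after subtraction of the median of expressed genes, since that shift exceeds it. The p53 targets past 2-fold numbered 3, and became 6 at the lower pseudocount of 0.01. There 5 were higher, with *Phlda3* and *Pmaip1* added, and *Pidd1* was lower. They numbered 1 at a pseudocount of 1 (*Sfn*, higher). With none added they numbered 9, of which 6 were higher, with *Bbc3* added, and *Fas*, *Pidd1* and *Zmat3* were lower. The setting with none was chosen after seeing the data. The CDK inhibitors and checkpoint effectors past 2-fold numbered 1, and 0 with a pseudocount of 1 and 0 after the subtraction. In the other lists the count was 0 for damage sensors and kinases and 0 for BRCA1 complexes under the pseudocounts and the subtraction, and that of p53 regulators was that of *Mdm4*, undecided at a pseudocount of 1. Over the 10 genes, 40 of 40 log2 ratios under the pseudocounts and the subtraction stayed within 1.5-fold of the reported one. Only 2 of the 10 reported ratios exceed 1.5-fold, so this wide limit says little about the others. There were 0 changes of sign, but a pseudocount cannot change a sign, and only the subtraction could have. Leaving out a replicate was not run, since the table holds genotype means. No paired analysis was possible because the columns carry no values of single libraries and the results come from no test.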
